A study of Drosophila melanogaster with 6 samples.

Results

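Rab genes encode small GTPases that mark the membranes of a cell and direct the vesicle traffic between them. The genes were taken by symbol, as those whose name starts with Rab followed by a digit or an X, and 35 of the 17714 genes in the deposited tables met this rule. Of these, 33 encode Rab GTPases, and the other 2, Rab3-GEF and Rab3-GAP, encode regulators and are described apart. Poly(A) RNA had been sequenced from Kc cells, a line of Drosophila melanogaster that was set up from embryos and resembles blood cells, in 3 libraries labelled ko (KO) and 3 labelled wild type (WT). The series' title names CG14906 (mettl4) and m6A methylation of U2 snRNA, and its design text describes mettl4 wild-type and knockout cells. Titles of the KO libraries carry the prefix OE, while their source and genotype fields say ko. The labels give no other treatment, and none tells if the libraries of a group are independent cultures or if KO is 1 clone. A p-value here therefore rests on library-to-library variation, part or all of which can be technical.

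A Rab protein is active when it holds GTP, in which state it sits on a membrane and binds effectors such as tethers and motors. Exchange factors load it with GTP, TBC-domain proteins speed its hydrolysis, and GDI keeps the GDP form soluble. Each compartment carries its own Rabs: Rab1 between endoplasmic reticulum and Golgi, Rab6 on the Golgi, Rab5 on early endosomes, Rab11 on recycling endosomes and Rab7 on late endosomes and lysosomes. In the macrophage-like blood cells of flies, Rab5, Rab7 and Rab14 also act in the maturation of phagosomes.

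Total expected counts were 11301501 to 14312536 in the KO libraries and 9963557 to 18906951 in the WT libraries, and the 33 Rab GTPase genes took 0.213% to 0.224% of them in KO and 0.196% to 0.205% in WT. CG14906 stood at 20.3, 18.5 and 20.2 normalised CPM (counts scaled to library size and then between libraries) in KO replicates 1 to 3, against 18.9, 20.1 and 16.4 in WT replicates 1 to 3 (edgeR adjusted p = 0.435). The groups overlapped, and the level of this RNA speaks for neither the ko label nor the OE prefix. Replicate 1 of each group stood apart from its group, with chi-squares per gene of 27.1 and 27.4 in KO and 19.2 and 26.2 in WT. WT replicates 2 and 3 differed least, with a chi-square per gene of 1.67, against 2.90 for KO replicates 2 and 3. Replicate 1 was also the library richest in ribosomal RNA of nuclear origin, with 4.11% in KO and 3.98% in WT. Lower percentages were found in KO replicates 2 (1.83%) and 3 (0.171%) and in WT replicates 2 (0.218%) and 3 (0.219%). Whether this difference relates to the chi-squares or to the Rab levels was not tested. Of 11 plasmatocyte markers 10 were tested, of which 5 rose and 2 fell, where 27.7% of all genes tested rose and 26.5% fell. Among those 11, Hml averaged 4494 CPM in KO and 4174 CPM in WT, eater 35.1 CPM in KO and 150 CPM in WT, Ppn 718 CPM in KO and 16.7 CPM in WT, and NimC1 1.48 CPM in KO and 0.202 CPM in WT. Their summed levels, mostly Hml and the collagens Col4a1 and vkg, ran from 7520 to 12200 CPM in KO and from 4980 to 7650 CPM in WT, and those of 8 germline markers from 368 to 424 CPM in KO and from 137 to 160 CPM in WT. Their part in the Rab differences was not tested.

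In Kc cells the Rab genes spanned levels from high for the endosomal and Golgi Rabs to none or almost none for synaptic Rab3, Rab26 and the Rab9-like genes of X. Summed over the 33 genes, the level was 1998, 2032 and 2135 TPM in KO and 1940, 2000 and 2012 TPM in WT, so the groups overlapped. In normalised CPM the sums did not overlap, at 2153 to 2195 in KO and 1989 to 2030 in WT. Averaged over all 6 libraries, 6 Rab GTPase genes stood at 100 TPM or more, 15 between 10 and 100, 3 between 1 and 10, and 9 under 1. Rab11, of the recycling endosome, was highest at 354 ± 15.0 TPM in KO and 338 ± 7.41 TPM in WT (SD, n = 3 in each group). Together Rab11, Rab5, Rab1 and Rab2 made up 50.6% of the summed Rab TPM in KO and 47.0% in WT.

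Of the 276 pairs among the 24 GTPase genes tested below, 12 stood in opposite order in all KO and all WT libraries, 2 of them with Rab5, 4 with Rab6 and 4 with Rab14. Rab5 came right after Rab11 in every KO library, at 273, 266 and 290 TPM, and stood below both Rab1 and Rab2 in every WT library, at 184, 187 and 189 TPM. Rab6 lay above Rab18 in each KO library (116, 105 and 118 TPM against 83, 90.7 and 95.8 TPM for Rab18). In each WT library Rab6 lay below Rab18, at 81.5, 82.0 and 83.1 TPM against 92.9, 115.1 and 109 TPM. Rab14 lay below Rab18, Rab6, Rab8 and Rab4 in each KO library and above all of them in each WT library.

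**Figure D1:**
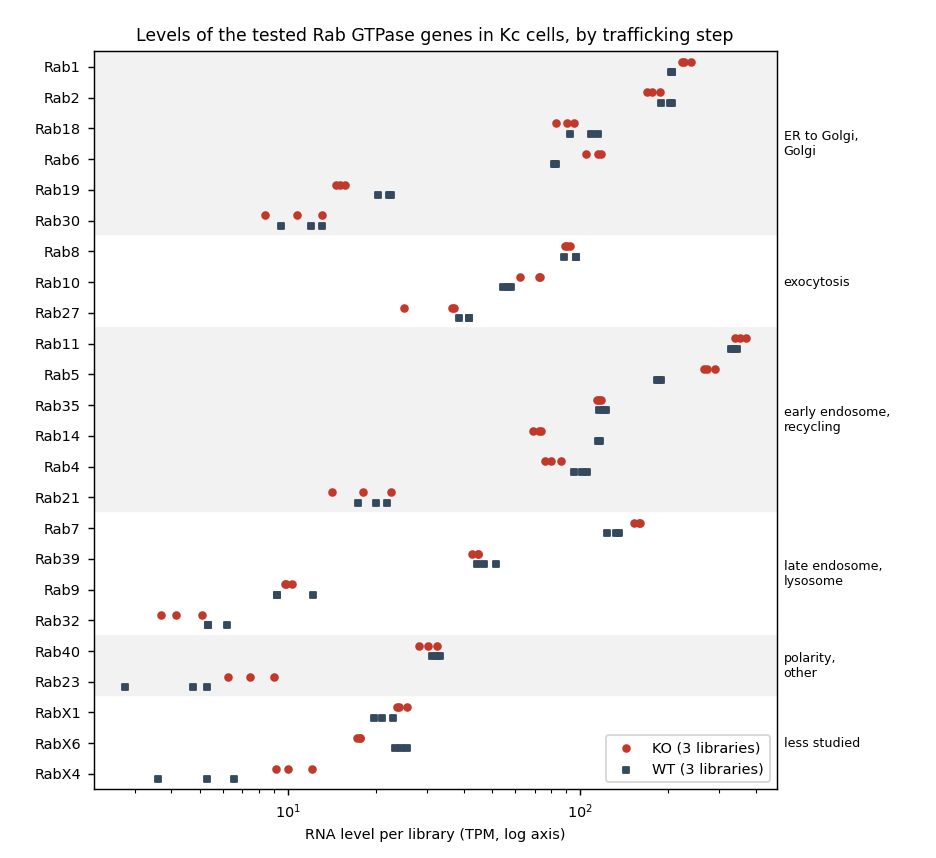
Level of each of the 24 tested Rab GTPase genes in TPM (log axis), with 1 point per library, KO as circles and WT as squares, grouped by trafficking step. Rab11 leads in all 6 libraries, and the KO and WT points of Rab5, Rab6 and Rab14 lie apart.

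The comparison of KO with WT asked which Rab genes differed in RNA level. Of the 33 GTPase genes, 24 passed the filter on low counts, and of these 8 rose and 4 fell in KO (edgeR quasi-likelihood test, adjusted p under 0.05 over all 8405 genes tested). These 12 of 24 stand near the 54.1% called among all genes tested. Rises took 33.3% of them, against 27.7% of all genes, and falls 16.7%, against 26.5% of all genes. KO and WT libraries did not overlap for 15 of the 24, where 63.3% of all genes tested did not overlap. Only RabX4 was called with a change of at least 2-fold, a size that 13.0% of all genes reached. The median absolute log2 fold change was 0.24 for the Rab GTPase genes and 0.33 for all genes, and the signed medians were -0.04 and 0.01. With WT replicates 2 and 3 summed to 1 sample, 6 rose and 4 fell, and over all genes 1868 rose and 1901 fell. Without replicate 1 of both groups, 7 rose and 8 fell, with Rab2, Rab8, Rab18 and Rab32 as the added falls. Calls over all genes grew there too, from 2324 rises and 2227 falls to 2902 rises and 2899 falls. In bulk RNA, a change in how many cells express a gene and a change in RNA per cell cannot be told apart.

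**Figure D2:**
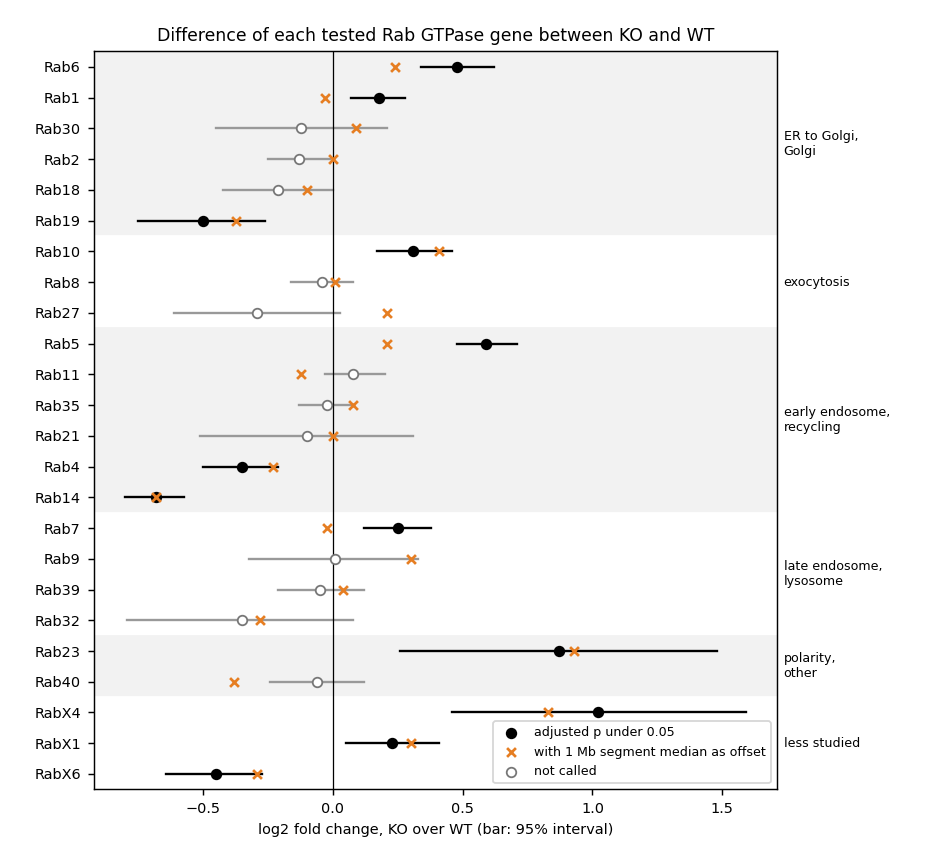
Fitted log2 fold change of KO over WT for the 24 tested Rab GTPase genes, with 95% intervals, filled where the adjusted p is under 0.05. Crosses give the value after the median change of the gene's 1 Mb segment is taken off; they sit near 0 for Rab1 (-0.03) and Rab7 (-0.02) and on the main value for Rab14 (-0.68).

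Among the 6 Rabs of the path from endoplasmic reticulum to Golgi and of the Golgi, Rab1 and Rab6 rose and Rab19 fell. Rab6, which directs retrograde and secretory carriers at the Golgi, stood at 143, 127 and 139 CPM in KO, against 97.7, 96.7 and 98.4 CPM in WT. All KO libraries lay above all WT libraries, by 39.4% in the fit (log2 fold change 0.48, SE 0.06, adjusted p = 0.000485). Rab6 lies on the minus strand of 2L at 12107221 to 12109116 (dm6) and has no annotated intron. Rab1, needed for transport out of the endoplasmic reticulum, had 274, 265 and 277 CPM in KO and 243, 238 and 240 CPM in WT. The groups did not overlap, but the rise was only 13.1% (log2 fold change 0.18, SE 0.05, adjusted p = 0.0135). Its call held in 8 of 14 alternatives. It was lost with no filter on low counts (adjusted p = 0.122), with WT replicates 2 and 3 summed (0.0694) and with the median change of its 1 Mb segment taken off (0.615). The call was also lost without KO replicate 3 (0.0627), WT replicate 2 (0.0705) or WT replicate 3 (0.0648). Rab1 (3R, 21266029 to 21269060, minus strand) shares 742 exonic bases with asRNA:CR45798 on the other strand, which averaged 1.03 CPM in KO and 0.783 CPM in WT.

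Rab19, a less studied Rab of the Golgi, had 10.4, 9.82 and 9.19 CPM in KO, against 14.6, 13.0 and 14.1 CPM in WT. Every KO library was below every WT library (log2 fold change -0.50, SE 0.10, adjusted p = 0.00537), and the call held in all 14 alternatives. Rab19 lies on the plus strand of 3L at 8297018 to 8298506. Rab2, which acts at the Golgi and in delivery to lysosomes, held 135, 134 and 137 CPM in KO and 141, 153 and 151 CPM in WT. These values did not overlap, yet the gene was not called (log2 fold change -0.13, 95% interval -0.25 to -0.01, adjusted p = 0.062). Without WT replicate 1 it was called (adjusted p = 0.0184). Rab18, known in mammals from lipid droplets and the endoplasmic reticulum, overlapped between the groups at 43.2 to 47.4 CPM in KO and 46.9 to 57.3 CPM in WT. It too missed the threshold (adjusted p = 0.0811) and passed it with the replicate block (0.0339), without WT replicate 1 (0.0123) and without replicate 1 of both groups (0.00122). The Golgi gene Rab30 ran from 10.7 to 13.5 CPM in KO and from 11.2 to 14.6 CPM in WT (adjusted p = 0.493).

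The early endosome and recycling Rabs held the most significant changes of the family, and they went in opposite directions. Rab5, which drives fusion of early endosomes, stood at 353, 334 and 352 CPM in KO, against 228, 229 and 233 CPM in WT. The KO libraries were all higher, by 50.8% (log2 fold change 0.59, SE 0.05, adjusted p = 9.01e-05). Rab5 lies on the minus strand of 2L at 2359142 to 2365273. Rab14, which acts between endosomes, Golgi and phagosomes, had 55.4, 56.5 and 55.2 CPM in KO and 89.8, 88.9 and 89.7 CPM in WT. Its libraries agreed closely within each group, and Rab14 fell by 37.8% (log2 fold change -0.68, SE 0.05, adjusted p = 5.41e-05). Rab14 lies on the plus strand of 2L at 14355145 to 14358764.

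Rab4, of the fast recycling route, also fell. It held 62.7, 58.9 and 63.7 CPM in KO, against 75.3, 83.1 and 78.1 CPM in WT, with no overlap (log2 fold change -0.35, SE 0.06, adjusted p = 0.00265). Rab4 lies on the plus strand of 2R at 17573462 to 17574979. The other 3 members of this step were not called. Rab11 ran from 371 to 383 CPM in KO and from 347 to 361 CPM in WT, without overlap but with a log2 fold change of only 0.08 (95% interval -0.03 to 0.20, adjusted p = 0.172). Rab35, of plasma membrane recycling, overlapped at 156 to 163 CPM in KO and 158 to 165 CPM in WT, and its interval of -0.13 to 0.08 leaves room for small changes only. Rab21, an early endosomal Rab linked to integrin traffic, spread from 9.72 to 15.2 CPM in KO and from 11.6 to 14.3 CPM in WT (95% interval -0.51 to 0.31). Summed over the 6 genes, the rise of Rab5 and the falls of Rab14 and Rab4 left the step at 918 ± 33.7 TPM in KO and 882 ± 14.2 TPM in WT, where the libraries overlapped. In normalised CPM the sums were 997.9 to 1022 in KO and 920.7 to 937.4 in WT, without overlap.

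Among the late endosomal and lysosomal Rabs only Rab7 was called. It stood at 146, 145 and 145 CPM in KO, against 128, 114.6 and 123 CPM in WT, with no overlap. The rise was 18.8% (log2 fold change 0.25, SE 0.05, adjusted p = 0.00689). Its position is 3R, 23993008 to 23995452, plus strand. Rab39, which acts at lysosomes and in autophagy, stood at 34.2 to 36.5 CPM in KO and 35.1 to 38.6 CPM in WT (adjusted p = 0.598). Rab9, of the path from late endosomes back to the Golgi, was at 10.3 to 10.6 CPM in KO and 9.43 to 12.5 CPM in WT (adjusted p = 0.967). Rab32, of lysosome-related organelles such as eye pigment granules, had 8.08, 6.50 and 5.20 CPM in KO and 9.22, 8.18 and 7.91 CPM in WT. The groups overlapped through KO replicate 1, and Rab32 was called as lower only without that library (adjusted p = 0.0334) or without replicate 1 of both groups (0.0291). Summed TPM of the step was 213, 218 and 217 in KO and 197, 193 and 194 in WT, without overlap. No other step was apart in TPM. In normalised CPM the sums of the Golgi step, the early endosome step and the less studied Rabs did not overlap either.

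Rab10 was the only called gene among the Rabs of exocytosis and polarised delivery. Rab10, which in fly follicle cells sends basement membrane proteins to the basal side, stood at 98.9, 112 and 110 CPM in KO and 84.0, 86.1 and 88.1 CPM in WT. All KO libraries were higher, by 24.4% (log2 fold change 0.31, SE 0.06, adjusted p = 0.00449), and the call held in all 14 alternatives. Rab10 lies on the plus strand of X at 20251338 to 20254691. Rab8, which also delivers cargo to the plasma membrane, overlapped at 119 to 124 CPM in KO and 119 to 128 CPM in WT (log2 fold change -0.04, 95% interval -0.16 to 0.08), and was called as lower only without replicate 1 of both groups (adjusted p = 0.0391). Rab27, known from secretory granules, had 26.1, 37.1 and 36.7 CPM in KO and 42.0, 38.5 and 41.6 CPM in WT. KO replicate 1 was far below the others; the groups did not overlap, and the gene was not called (log2 fold change -0.29, SE 0.14, adjusted p = 0.106).

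RabX4 and Rab23, both of low level, had the largest fitted changes. RabX4, a Rab of little known role, had 11.4, 8.35 and 8.93 CPM in KO, against 5.95, 3.19 and 4.77 CPM in WT. The groups did not overlap and the fitted level was 2.03-fold higher in KO (log2 fold change 1.02, SE 0.24, 95% interval 0.46 to 1.59, adjusted p = 0.00961). The gene (3R, 24826665 to 24828409, minus strand) shares 131 exonic bases with Kaz on the same strand, which averaged 40.5 CPM in KO and 41.4 CPM in WT, so some reads could not be assigned for certain. Rab23, which acts in planar cell polarity in flies, had 13.9, 11.2 and 9.11 CPM in KO and 4.13, 7.78 and 7.02 CPM in WT. All KO libraries were higher (log2 fold change 0.87, SE 0.26, adjusted p = 0.0257), but the call was lost without KO replicate 1 (adjusted p = 0.068), KO replicate 2 (0.0646) or WT replicate 3 (0.0511). Its position is 3R, 5680054 to 5685434, minus strand.

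RabX6 fell and RabX1 rose. RabX6, another little studied member, stood at 14.9, 14.6 and 13.8 CPM in KO and 19.1, 20.6 and 19.7 CPM in WT (log2 fold change -0.45, SE 0.08, adjusted p = 0.00241). It lies on the plus strand of 3L at 690517 to 691951 and shares 466 exonic bases with the SNARE gene Vti1a on the opposite strand. Vti1a was also lower, at 9.83 ± 0.55 CPM in KO and 12.1 ± 0.44 CPM in WT (SD, n = 3; edgeR adjusted p = 0.0386, called in 6 of 14 alternatives). Strand use in counting is not stated, but both genes had fractional expected counts in every library, such as 208.63 for RabX6 and 142.37 for Vti1a in KO replicate 1. Reads of the shared bases were thus split between them, and their falls are not independent. RabX1, likewise little studied (2R, 23519839 to 23523613, minus strand) had 26.5, 25.4 and 26.6 CPM in KO, against 21.1, 24.1 and 22.1 CPM in WT. This was the call nearest the threshold (log2 fold change 0.23, SE 0.08, adjusted p = 0.0386). It held in 5 of 14 alternatives and was lost, among others, with DESeq2 (adjusted p = 0.193) and with WT replicates 2 and 3 summed (0.0606). Rab40, whose vertebrate relatives belong to a ubiquitin ligase, overlapped at 29.9 to 33.9 CPM in KO and 31.7 to 33.6 CPM in WT (adjusted p = 0.513).

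**Figure D3:**
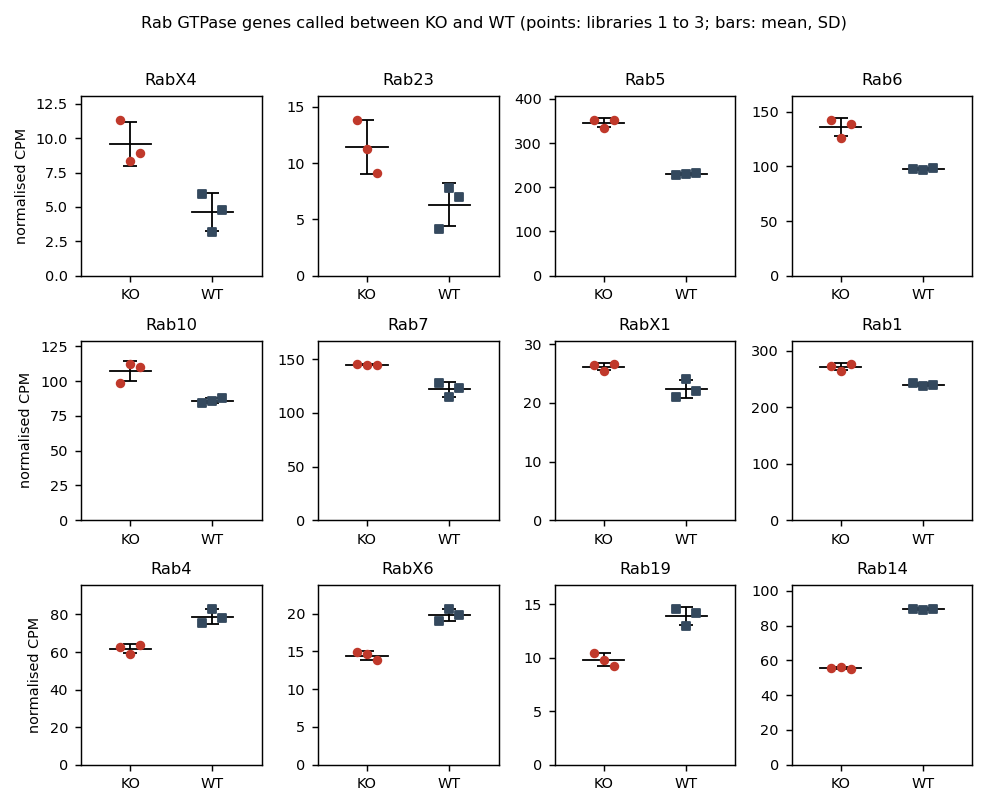
Normalised CPM of the 12 called Rab GTPase genes in each library, with KO left of WT, group means and SD (n = 3 in each group), and axes that start at 0. The KO and WT points do not overlap in any panel, with the tightest groups for Rab14 at 55.2 to 56.5 CPM in KO and 88.9 to 89.8 CPM in WT.

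The 9 GTPase genes that did not pass the filter on low counts were Rab3, Rab26, RabX2, RabX5, Rab9D, Rab9Db, Rab9E, Rab9Fa and Rab9Fb. Rab3, the Rab of synaptic vesicles, had 29, 17 and 7 counts in KO (2.07, 1.31 and 0.607 CPM) and 3, 6 and 10 counts in WT (0.182, 0.598 and 0.524 CPM). KO was higher throughout by CPM, and KO replicate 3 lay next to the WT libraries. Fitted without the filter, Rab3 had a log2 fold change of 1.6 (edgeR adjusted p = 0.0499), and with DESeq2 1.63 (adjusted p = 0.0809). It was tested in 5 further alternatives, where the edgeR adjusted p ran from 0.0268 without KO replicate 3 to 0.119 without WT replicate 1. RabX2 had 1 count over the KO libraries and 3, 3 and 2 counts in the WT libraries. Rab26, Rab9Db and Rab9Fa had 2 counts or fewer in any library. RabX5, Rab9D, Rab9E and Rab9Fb had 0 counts in all 6 libraries, which allows at most 0.210 to 0.265 CPM in a KO library and 0.159 to 0.301 CPM in a WT library (3 counts, counting error only). The 5 genes of the Rab9D to Rab9Fb group and RabX2 have no intron and lie on X between 10417429 and 10952486. Reads of close copies cannot be assigned for certain.

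Of the 5 tested genes on 3R, Rab1, Rab7, RabX4 and Rab23 rose and the fifth, Rab11, was not called, where 40.8% of the 2012 genes tested on 3R rose and 12.9% fell. Of 7 tested on X, only Rab10 was called, a rise, where 17.2% of 1466 genes rose and 38.6% fell. These few genes allow no statement on placement. All genes tested in the 1 Mb segment of Rab1 had a median log2 fold change of 0.21, those around Rab7 0.26, those around Rab5 0.38 and those around Rab6 0.24. With these segment medians as an offset, the changes of Rab1 and Rab7 were -0.03 (adjusted p = 0.615) and -0.02 (adjusted p = 0.842). Rab5 and Rab6 were still called on that scale, at 0.21 (adjusted p = 0.0102) and 0.24 (adjusted p = 0.0133). Rab14, whose segment median was 0.00, stood at -0.68 (adjusted p = 6.68e-05). Rab40, in a segment with a median of 0.32, was called as lower on that scale (log2 fold change -0.38, adjusted p = 0.00602).

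Transcript length, weighted by the estimated share of each isoform, gave a second readout for 16 Rab GTPase genes, those that had 2 or more annotated transcripts and reached 5 TPM on average. Among these 16, Rab19 and RabX6 had the same length in all 6 libraries, at 1033 and 1286 bases, and so could show no difference. No gene of the 16 was called (limma, adjusted p under 0.05), against 2.34% of 4224 genes tested, while 3 had an unadjusted p under 0.05. Rab4 came nearest, at 1205, 1214 and 1196 bases in KO and 1246, 1255 and 1233 bases in WT, a log2 ratio of -0.047 (adjusted p = 0.0948, or 0.0495 with the replicate block). All KO values lay below all WT values. Rab7 averaged 1429 ± 16.6 bases in KO and 1462 ± 2.78 bases in WT (SD, n = 3; limma adjusted p = 0.193).

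The 2 regulators that share the Rab symbol were not called. Rab3-GAP, a subunit of a complex that acts on Rab3 and, in mammals, on Rab18, stood at 25.4, 28.8 and 28.4 CPM in KO and 27.1, 28.4 and 28 CPM in WT (log2 fold change -0.01, 95% interval -0.19 to 0.16). With segment medians as an offset it was called as lower (-0.25, adjusted p = 0.0306). Rab3-GEF, an exchange factor of Rab3, was at 1.0, 0.851 and 0.173 CPM in KO and 1.09, 0.299 and 0.419 CPM in WT, too low to place (95% interval -1.47 to 1.75).

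Counts of calls in the lists below stand against 27.7% of all genes tested that rose and 26.5% that fell. Genes for proteins that carry Rabs through their cycle changed in part. Of 4 escort, GDI and prenyltransferase genes, Gdi and betaggt-II rose and Rep fell. Gdi, which extracts inactive Rabs from membranes, had 201, 251 and 249 CPM in KO and 156, 166 and 164 CPM in WT (log2 fold change 0.53, adjusted p = 0.0024). betaggt-II, the catalytic subunit that attaches lipids to Rabs, averaged 23.5 ± 2.38 CPM in KO and 15.3 ± 1.43 CPM in WT (adjusted p = 0.00252, and 0.112 after the segment offset). Rep, which presents new Rabs to that enzyme, averaged 36.8 ± 1.11 CPM in KO and 44.4 ± 2.24 CPM in WT (adjusted p = 0.0125, and 0.722 after the segment offset).

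Of 13 exchange factor genes, which include Rab3-GEF and Rab3-GAP, 2 rose and 4 fell. Rich and CG1116, linked to the activation of Rab6, fell, while Rab6 rose. Rich, the fly exchange factor of Rab6, had 112, 104 and 110 CPM in KO and 164, 166 and 170 CPM in WT (log2 fold change -0.62, SE 0.05, adjusted p = 8.73e-05). CG1116, for which RefSeq lists the synonym Rgp1, the partner subunit in yeast, had 18, 18.3 and 16.3 CPM in KO and 33.7, 34.1 and 33.2 CPM in WT (log2 fold change -0.94, SE 0.07, adjusted p = 7.74e-05). Neither overlapped between the groups. Mon1, which activates Rab7, averaged 26.6 ± 1.71 CPM in KO and 21.8 ± 1.37 CPM in WT (adjusted p = 0.0229). That call held in 6 of 14 alternatives; it was lost, among others, with DESeq2 (0.1), with WT replicates 2 and 3 summed (0.0535) and without KO replicate 2 (0.0937) or WT replicate 1 (0.0677), 2 (0.0505) or 3 (0.0559), and the log2 value was -0.17 after the segment offset. Its partner Ccz1 averaged 17.8 ± 3.35 CPM in KO and 16.7 ± 0.66 CPM in WT (adjusted p = 0.602). Rabex-5, which activates Rab5, averaged 52.2 ± 1.59 CPM in KO and 47.1 ± 0.38 CPM in WT (adjusted p = 0.0682, and 0.0455 without KO replicate 1). Sbf, an exchange factor of Rab21, averaged 106 ± 1.72 CPM in KO and 79.7 ± 2.11 CPM in WT (adjusted p = 0.000395), a difference that turned to a log2 value of -0.02 with segment medians as an offset. Crag, which activates Rab10 and Rab11 in flies, averaged 238 ± 14.1 CPM in KO and 269 ± 9.14 CPM in WT (adjusted p = 0.0379), a call that held in 7 of 14 alternatives and was lost when any 1 library other than KO replicate 1 was left out (adjusted p of 0.0656 to 0.119).

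Of 12 tested TBC-domain genes, 2 rose and 5 fell. GAPcenA averaged 56.5 ± 1.42 CPM in KO and 81.7 ± 0.83 CPM in WT (adjusted p = 0.000177), and CG7324, annotated as Tbc1d8-9, 170 ± 3.32 CPM in KO and 230 ± 4.09 CPM in WT (adjusted p = 0.000247). The gene wkd averaged 43.4 ± 3.22 CPM in KO and 29.5 ± 2.05 CPM in WT (adjusted p = 0.00149), a call that the segment offset removed (adjusted p = 0.291).

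Effectors and golgins gave 3 rises and 12 falls of 24 (12.5% and 50%, against 27.7% and 26.5% of all genes tested), and the changes of nuf and btsz were larger than that of any tested Rab. The Rab11 effector nuf, needed for recycling endosome traffic in the early embryo, had 105, 86.3 and 84.0 CPM in KO and 10.9, 8.97 and 9.64 CPM in WT. That is 9.28-fold higher in KO (log2 fold change 3.21, SE 0.12, adjusted p = 4.01e-06), while Rab11 itself was not called. The synaptotagmin-like gene btsz had 7.50, 11.4 and 8.59 CPM in KO and 0.486, 0.299 and 0.419 CPM in WT (log2 fold change 4.44, SE 0.29, adjusted p = 4.17e-05). CG11448, annotated as Rilpl, had 77.6, 87.1 and 84.9 CPM in KO and 143, 153 and 152 CPM in WT (log2 fold change -0.85, SE 0.06, adjusted p = 5.75e-05). All 3 parted the groups without overlap.

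Among 9 genes of HOPS and CORVET tethers and their relatives, 4 fell and the other 5 were not called. Vps33B, which with Vps16B is listed as a relative and not as a HOPS or CORVET subunit, stood at 24.9 ± 1.08 CPM in KO and 33.2 ± 0.91 CPM in WT (adjusted p = 0.00204). The lowest adjusted p among these 9 was that of dor, at 39.4 ± 3.83 CPM in KO and 58.0 ± 1.22 CPM in WT (0.00123, and 0.622 after the segment offset). Exocyst genes gave 3 rises and 3 falls of 8, with Exo84 at 84.9 ± 6.92 CPM in KO and 56.7 ± 2.79 CPM in WT (adjusted p = 0.000704) and Sec6 at 58.5 ± 5.62 CPM in KO and 96.3 ± 3.17 CPM in WT (adjusted p = 0.000303). TRAPP genes gave 1 rise and 4 falls of 8, with Bet3 at 22.4 ± 2.21 CPM in KO and 34.3 ± 1.14 CPM in WT (adjusted p = 0.00106). Of 3 retromer genes 1 rose and 1 fell, and neither call was kept after the segment offset (Vps29, adjusted p = 0.738; Vps26, adjusted p = 0.784). ESCRT genes gave 7 rises and 6 falls of 17, with Vps2 at 88.3 ± 12.4 CPM in KO and 50.1 ± 0.84 CPM in WT (adjusted p = 0.000563). SNARE, NSF and SNAP genes gave 4 rises and 8 falls of 24, with the plasma membrane syntaxin Syx1A at 271 ± 10.3 CPM in KO and 209 ± 8.61 CPM in WT (adjusted p = 0.00119). Coat and Arf genes gave 6 rises and 4 falls of 17, with the COPII gene Sec24CD at 272 ± 13.8 CPM in KO and 165 ± 7.09 CPM in WT (adjusted p = 9.51e-05) and the COPI gene beta'COP at 334 ± 23.2 CPM in KO and 547 ± 5.74 CPM in WT (adjusted p = 0.000131).

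Over all these lists 31 of 139 tested genes rose and 52 fell, which is 22.3% and 37.4%. Among all genes tested 27.7% rose and 26.5% fell. The median log2 fold change of the lists was -0.06, and that of all genes was 0.01.

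**Figure D4:**
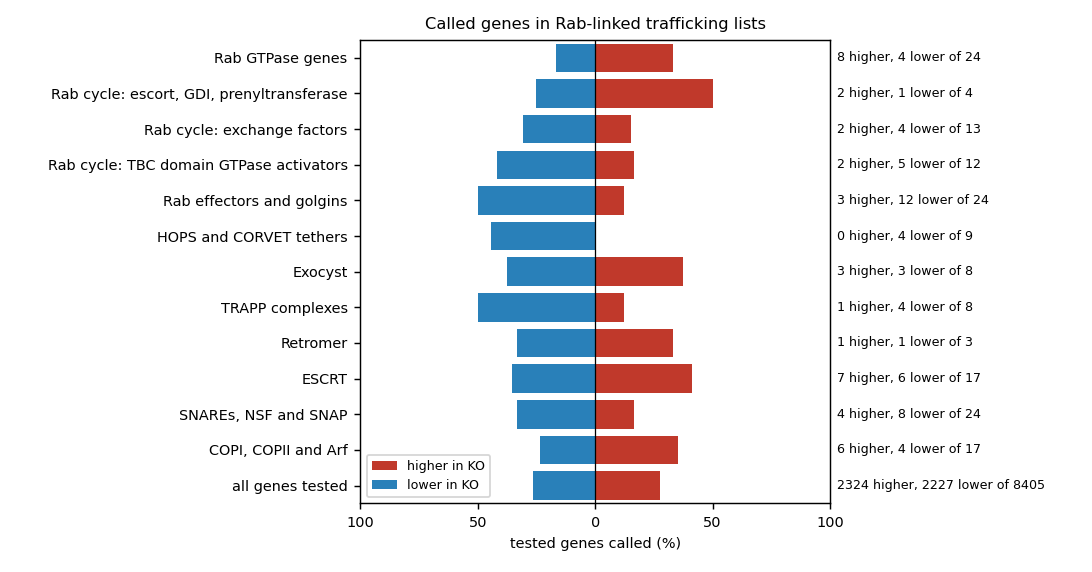
Share of tested genes called higher (right) and lower (left) in KO than in WT for the Rab GTPase genes, the 11 lists of Rab-linked trafficking genes and all genes, with counts at the right. Falls outnumber rises among effectors and golgins (3 higher and 12 lower of 24) and the few TRAPP genes (1 and 4 of 8). The same holds for HOPS and CORVET tethers (0 and 4 of 9) and TBC-domain genes (2 and 5 of 12). It also holds for SNARE, NSF and SNAP genes (4 and 8 of 24) and the exchange factor list (2 and 4 of 13). Rises outnumber falls among escort, GDI and prenyltransferase genes (2 and 1 of 4), ESCRT genes (7 and 6 of 17) and coat and Arf genes (6 and 4 of 17). Exocyst and retromer genes have as many rises as falls. Rab GTPase genes had 8 higher and 4 lower of 24, but 7 and 8 without replicate 1 of both groups.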

How the data were processed

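Poly(A) RNA of 3 KO and 3 WT libraries of Kc cells was measured. Tools listed in the submitters' processing notes are RSEM 1.3.0, STAR 2.7.0f, cutadapt and CASAVA 1.7, with dm6 as the build. Annotation release and use of strand: not given in the sources used here. Per the file headers, the authors deposited RSEM expected counts, TPM values, transcript lengths weighted by isoform share and FPKM values. FPKM values of the deposited files were not used.

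Expected counts were rounded to whole numbers for edgeR 4.0.16 (R 4.3.3). Its quasi-likelihood test used TMM factors (0.979 to 1.02) and filterByExpr set to a minimum of 10 counts, with p-values of 8405 genes adjusted by Benjamini and Hochberg. Normalised CPM are these counts per library size after TMM. A standard error is the log2 fold change divided by the square root of F. Called means an adjusted p under 0.05. TPM served for levels between genes and normalised CPM for differences between groups. Log2 transcript lengths were tested with limma 3.58.1. Both procedures were tested on simulated data. Coordinates and overlaps come from Ensembl's annotation in dm6 coordinates, which held 17587 of the 17714 gene identifiers.

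All Rab genes are named, and of each trafficking list up to 3 called genes with the lowest adjusted p could be named; Mon1, Ccz1, Rabex-5, Crag, Vti1a and the marker genes were named for their role, after their values had been seen. Of 145 listed trafficking genes 141 were found and 139 tested. Members and lists were chosen with earlier results of these data known. Alternatives were RLE factors, DESeq2 1.42.0, other count filters, a replicate block, each library left out, WT replicates 2 and 3 summed, replicate 1 of both groups left out, and medians of 1 Mb segments (at least 20 tested genes) as an offset.

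Replicate numbers are shared between groups, though no label states a pairing. For numbers 1, 2 and 3, the correlation of KO and WT deviations from their group means was 0.52, 0.15 and 0.44 over 8405 genes, each above the limit of 0.1 used for a pairing, although KO replicate 3 correlated about as well with WT replicate 2 (0.42). The reported fit has no block, and blocked values are given where they change the call of a Rab gene. No sequences are printed, since none were used here.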

Additional observations from a re-analysis of the deposited data

How the results depend on the processing

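Of 362 values of the Rab genes over the 14 alternatives, 308 kept direction and side of the threshold and 27 changed sign. Among those that kept direction, 17 lost the call and 10 gained one. Rab1 and Rab7 with segment medians as an offset, counted as changes of sign, lost the call too. Rab5, Rab6, Rab10, RabX4, Rab14, Rab4, Rab19 and RabX6 stayed called in all 14. The replicate block changed 1 call among the Rab genes, that of Rab18 (log2 fold change -0.21, adjusted p = 0.0339), and gave 1 called length (Rab4) against none. In the trafficking lists it gave 39 rises and 57 falls, with 14 calls gained and 1 lost (Vps4), and over all genes 2586 rises and 2475 falls. Leaving out 1 library gave 5 (without WT replicate 3) to 7 rises and 4 to 6 falls of Rab GTPase genes, 1814 to 2343 rises and 1807 to 2373 falls of all genes, and 23 to 36 rises and 35 to 49 falls in the trafficking lists. Without replicate 1 of both groups 8 Rab GTPase genes and 2899 of all genes fell, against 4 and 2227 in the main fit, where WT is then its closest pair of libraries. The cause was not tested.

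With segment medians as an offset the log2 fold change changed sign for Rab1 (-0.03), Rab7 (-0.02), Rab2 (0.0013), Rab30 (0.09), Rab11 (-0.12), Rab21 (6.9e-05), Rab35 (0.08), Rab27 (0.21), Rab8 (0.01), Rab39 (0.04), Sbf (-0.02), Nsf2 (-0.09), Vps26 (0.03), Vps29 (-0.03), Mon1 (-0.17), Ccz1 (-0.13), Rabex-5 (-0.09), Hml (-0.13) and CG14906 (-0.28). Of the called genes in the trafficking lists 11 changed sign there, and Sec22 and deltaCOP were then called in the other direction. Leaving out 1 library gave -0.02 to 0.23 for Ccz1 and -0.04 to 0.23 for Hml. Rab9 stood at -0.0086 with DESeq2, -0.03 with no filter, -0.0022 without KO replicate 1, -0.06 without WT replicate 1, -0.07 without WT replicate 3 (against 0.13 without WT replicate 2) and -0.04 without both number-1 libraries. Rab3-GAP stood at 0.0092 with a minimum count of 50, 0.02 when replicate 1 was left out of both groups, and at -0.05 (KO replicate 2 left out) to 0.04 (KO replicate 1 left out) over single libraries. Rab3-GEF stood at -0.26, -0.04, -0.12 and -0.11 without KO replicate 1, KO replicate 2, WT replicate 2 and WT replicate 3, at 0.86 without WT replicate 1, and at -0.04 with WT replicates 2 and 3 summed. Rab30 stood at 0.0098 without both number-1 libraries, Rab21 at 0.04 (KO replicate 1 left out; -0.29 with KO replicate 2 left out instead) and Rab35 at 0.0012 with a minimum count of 50.

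Log2 ratios of summed levels, KO over WT, were larger in normalised CPM than in TPM for all sums but that of the late endosome step. They were 0.11 against 0.05 for all Rab GTPases, 0.11 against 0.02 for the Golgi step and 0.12 against 0.06 for early endosomes and recycling. Exocytosis had 0.06 against 0.01, the less studied Rabs 0.10 against 0.04, and polarity and other 0.13 against 0.05. The late endosome step had 0.15 in both units. Depth limits the 9 genes under the count filter.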

Other observations

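Neuronal genes were looked at beside the synaptic vesicle gene Rab3, since Rab3 and Rab27 serve regulated secretion in neurons. Of 8 neuron markers 5 were tested, of which 2 rose and 1 fell, against 54.1% called among all genes tested. The summed level of the 8 was 188, 135 and 125 CPM in KO and 123, 87.4 and 91.4 CPM in WT, so the groups did not overlap. The calcium channel gene cac had 68.5, 45.3 and 39.1 CPM in KO and 14.6, 11.0 and 10.8 CPM in WT (log2 fold change 2.07, SE 0.23, edgeR adjusted p = 0.000335). The active zone gene brp had 73.9, 52.4 and 47.6 CPM in KO and 45.8, 25.3 and 27.7 CPM in WT (log2 fold change 0.81, SE 0.25, adjusted p = 0.0299), a call lost without KO replicate 1 (0.0769) or 2 (0.0509) or WT replicate 2 (0.0927) or 3 (0.0997). The neuronal RNA-binding protein gene elav averaged 28.1 ± 3.83 CPM in KO and 45.6 ± 3.89 CPM in WT (SD, n = 3 in each group; adjusted p = 0.00192, and 0.575 with segment medians as an offset). The synaptic vesicle genes nSyb and Syt1 averaged 0.745 and 0.625 CPM in KO and 0.272 and 0.30 CPM in WT and were not tested. Replicate 1 was the highest library of its group for Rab3 in KO, brp in both groups and cac in both groups. These genes were chosen after their values had been seen, and no relation between them and Rab3 was tested.

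Other marker sums stood at 1790 to 1960 CPM in KO and 1350 to 1390 CPM in WT for lamellocytes. Of 6 such markers 4 were tested, of which 2 rose (PPO3 and betaTub60D) and 0 fell. Sums for crystal cells were 12.1 to 14.3 CPM in KO and 2.59 to 4.07 CPM in WT. Of 5 such markers 2 were tested, of which 1 rose (klu) and 0 fell. Among all genes tested 27.7% rose and 26.5% fell. Muscle sums were 11.3 to 21.2 CPM in KO and 6.18 to 13.7 CPM in WT. Fat body sums were 1.39 to 3.79 CPM in KO and 1.7 to 3.16 CPM in WT. Of 3 muscle markers and 1 fat body marker tested, 0 were called. A change in these cell types was not tested.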
